A study of Homo sapiens with 10 samples.

Results

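Very broad domains of H3K4me1 were examined in SKBR3 and in BT474. Both are established cell lines from human breast cancers, and both carry extra copies of ERBB2, the gene of the receptor HER2. The domains were chosen by their measured width. An island of H3K4me1 in replicate 1 of a line was kept when it was at least 30 kb wide and overlapped an island of at least 30 kb in replicate 2 of the same line. In SKBR3 this gave 266 domains among 72888 islands (0.365%), and in BT474 180 domains among 96293 islands (0.187%), 446 in all. The widths and the agreement of the replicates in width are therefore descriptions and were not tested.

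The study mapped the binding of HER2 to chromatin and set it beside H3K4me1. H3K4me1 was measured by ChIP-seq with 2 replicates in each line, in asynchronous cells per the labels and, per the study's text, in cells treated with the epidermal growth factor (EGF). HER2 was mapped by ChIP-exo, in which an exonuclease trims the bound DNA before sequencing, after 3 hours with water as vehicle or with 100 ng/ml of EGF, with 1 peak list for each line and treatment. The cells were not deprived of serum. The replicates of H3K4me1 are not described as separate cultures, so the spread between them may be technical. Copy number of the DNA was not measured in the lists, and the input libraries were not analysed here.

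H3K4me1, the monomethylation of lysine 4 on histone H3, is deposited mainly by the enzymes KMT2C and KMT2D and marks enhancers, both poised and active, whereas the nucleosomes at an active promoter carry the trimethylated form instead. Wide stretches of enhancer chromatin are known to lie at genes that define the identity of a cell and at oncogenes. In a cell with extra copies of a segment, every copy gives reads, so the signal of a mark over that segment also counts its copies.

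The promoters of PMEPA1, which lay in the widest BT474 domain, and of ERBB2, which lay in the densest, are shown, since a break between the SKBR3 domains described later falls on the second. Each has 300 bases, from 250 before the start of transcription to the 50 that follow, in GRCh37. The strand of the gene is given, the sequence is printed 5′ to 3′ on that strand, and capitals mark the CpG dinucleotides.
PMEPA1, chr20:56285022-56285321, minus strand: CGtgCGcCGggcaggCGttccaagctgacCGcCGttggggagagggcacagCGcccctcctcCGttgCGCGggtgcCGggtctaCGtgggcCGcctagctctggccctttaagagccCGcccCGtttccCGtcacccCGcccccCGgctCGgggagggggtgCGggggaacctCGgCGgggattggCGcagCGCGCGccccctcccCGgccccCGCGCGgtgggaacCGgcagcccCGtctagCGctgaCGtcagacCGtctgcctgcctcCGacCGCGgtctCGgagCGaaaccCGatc
ERBB2, chr17:37856067-37856366, plus strand: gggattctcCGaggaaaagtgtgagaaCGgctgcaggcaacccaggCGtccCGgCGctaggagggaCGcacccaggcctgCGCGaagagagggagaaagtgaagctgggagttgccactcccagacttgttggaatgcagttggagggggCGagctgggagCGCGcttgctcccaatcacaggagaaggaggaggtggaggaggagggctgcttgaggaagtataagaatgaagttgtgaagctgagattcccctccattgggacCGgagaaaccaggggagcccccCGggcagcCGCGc

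The PMEPA1 promoter held 41 CpG, and 9.94% of the 20163 protein-coding promoters held at least as many. The ERBB2 promoter held 15, and 67.0% held at least as many. The median over all promoters was 23 CpG. It was 12 over the 74 genes whose start lay in a SKBR3 domain and 22 over the 111 genes of BT474. Outside the dense areas described later, it was 6 over 39 genes in SKBR3 and 19.5 over 24 in BT474.

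The labelled cell type was checked on 10 genes of luminal epithelium, through the share of each gene body inside islands. In SKBR3 the median was 38.5% for these genes, against 12.5% for 20 basal and mesenchymal genes and 4.2% for 20 genes of blood cells. In BT474 the medians were 57.3%, 7.36% and 0%. CDH1, GATA3 and FOXA1 were without any island in the SKBR3 libraries, and in BT474 FOXA1 had one in replicate 2 only. KRT14, a keratin of basal cells, was covered over 83.8% of its body in both SKBR3 replicates. CAV1 was covered over 97.8% and 92.8% there, and SNAI1 over 100% in both lines. Of the 20 basal and mesenchymal genes, 5 had no island in either SKBR3 replicate. ERBB2 was among the luminal genes and lay in the dense domains described later. Without ERBB2 the middle luminal gene in SKBR3 was EPCAM (9.67% and 14.85%), near the basal and mesenchymal median. In BT474 it was then KRT18 (51.8% and 61.7%). The island lists therefore followed the luminal label for BT474, while for SKBR3 the check depended on ERBB2 and did not decide.

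Most domains were only somewhat wider than the limit, with a long tail. In SKBR3 the width in replicate 1 ran from 30.2 to 289.2 kb with a median of 40.9 kb, and in BT474 from 30.2 to 415.8 kb with a median of 43.3 kb. In replicate 2 the matched islands had medians of 44 kb and 45.3 kb. The narrowest width kept, 30199 bp, belonged to 4 SKBR3 and 2 BT474 domains, and 5 and 4 islands of 29999 bp fell just outside. There were 24 domains of at least 100 kb in each line. The replicate widths lay within 1.5 times of each other for 222 SKBR3 domains (83.5%) and 154 BT474 domains (85.6%). Of the islands of at least 30 kb in replicate 1, 90 in SKBR3 and 78 in BT474 had no match of that width, and the widest island that replicate 2 held there had a median width of 22.7 kb and 21.8 kb. SICER joins neighbouring windows of 200 bp into islands, so a gap in one replicate can split a domain that is whole in the other.

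Read density, the reads of an island per kb, was also high in the domains. It was divided by the density of the median island of the same library, which was 40 and 38.9 reads per kb in the SKBR3 replicates and 50 and 42.7 in BT474, where the reads inside islands numbered, in units of 1000000 reads, 15.6, 15.3, 18.7 and 15.1. This relative density, averaged over the replicates, had a median of 2.04 in SKBR3 domains (range 0.89 to 7.31) and 2.13 in BT474 domains (1.03 to 7.10). Islands of 10 to 30 kb had medians of 1.34 and 1.31 in the SKBR3 replicates and 1.37 and 1.35 in BT474. A value of at least 4 was reached by 28 SKBR3 and 11 BT474 domains. The SKBR3 domains held 4.64% of the bases and 10.7% of the reads of all islands, and the BT474 domains 3.59% and 7.75%. Reads and width come from the same libraries and a caller that uses reads, so no test was made of this relation.

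**Figure D1:**
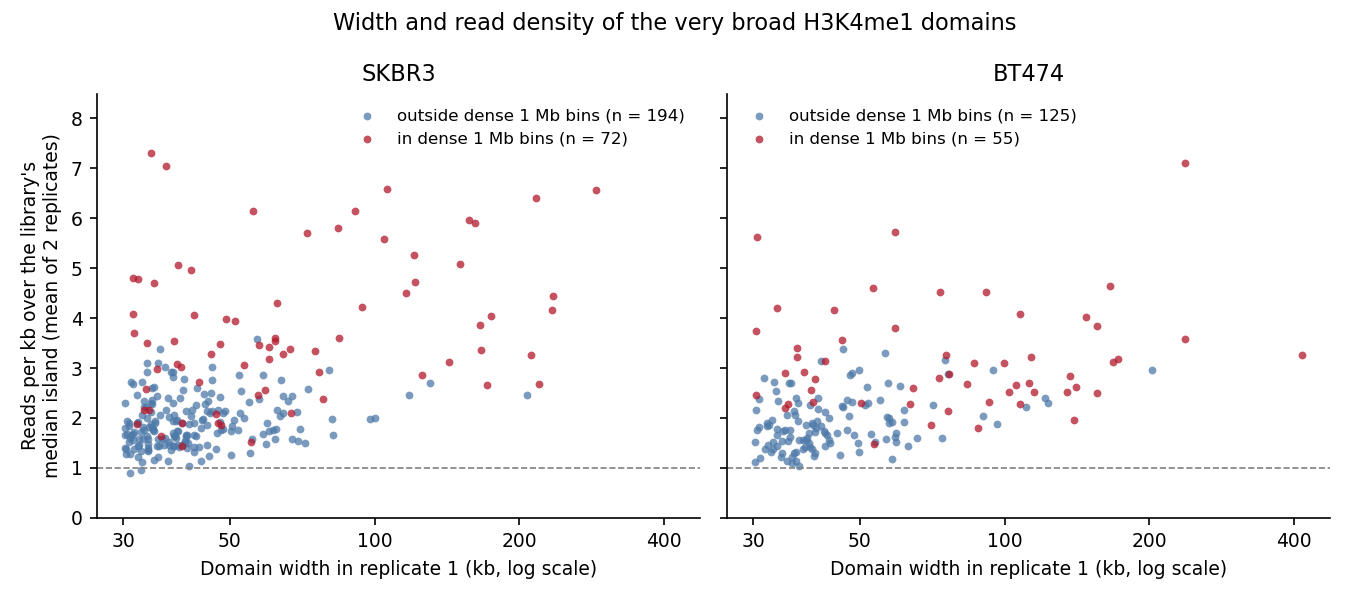
Width in replicate 1 (kb, log scale) against read density over the library's median island (mean of 2 replicates) for each of the 266 SKBR3 and 180 BT474 domains, with the dashed line at the density of the median island. Red points are domains in 1 Mb bins of dense islands (72 and 55) and blue points the others (194 and 125). The red points reach 7.31 and 7.10, and the blue points end at 3.59 and 3.37.

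The domains crowded on a few chromosomes that differed between the lines. In SKBR3, chromosome 8 held 63 domains (23.7%) with 2.69% of the islands, chromosome 20 held 35 (13.2% against 3.47%), chromosome 7 held 32 (12% against 7.07%) and chromosome 17 held 19 (7.14% against 3.46%). In BT474, chromosome 17 held 51 (28.3% against 3.29%) and chromosome 20 held 40 (22.2% against 2.23%), while chromosome 8 held 8. Chromosomes 17 and 20 thus stood above their share of islands in both lines, and chromosomes 7, 8 and 10 (7.14% against 4.62%) in SKBR3. In BT474, chromosome 9 (5.56% against 3.26%) and, by less, chromosomes 11 (5% against 4.80%) and 14 (5% against 4.13%) were also above it. The high share on SKBR3 chromosome 8 came with few islands there, 1958 against 5134 in BT474.

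**Figure D2:**
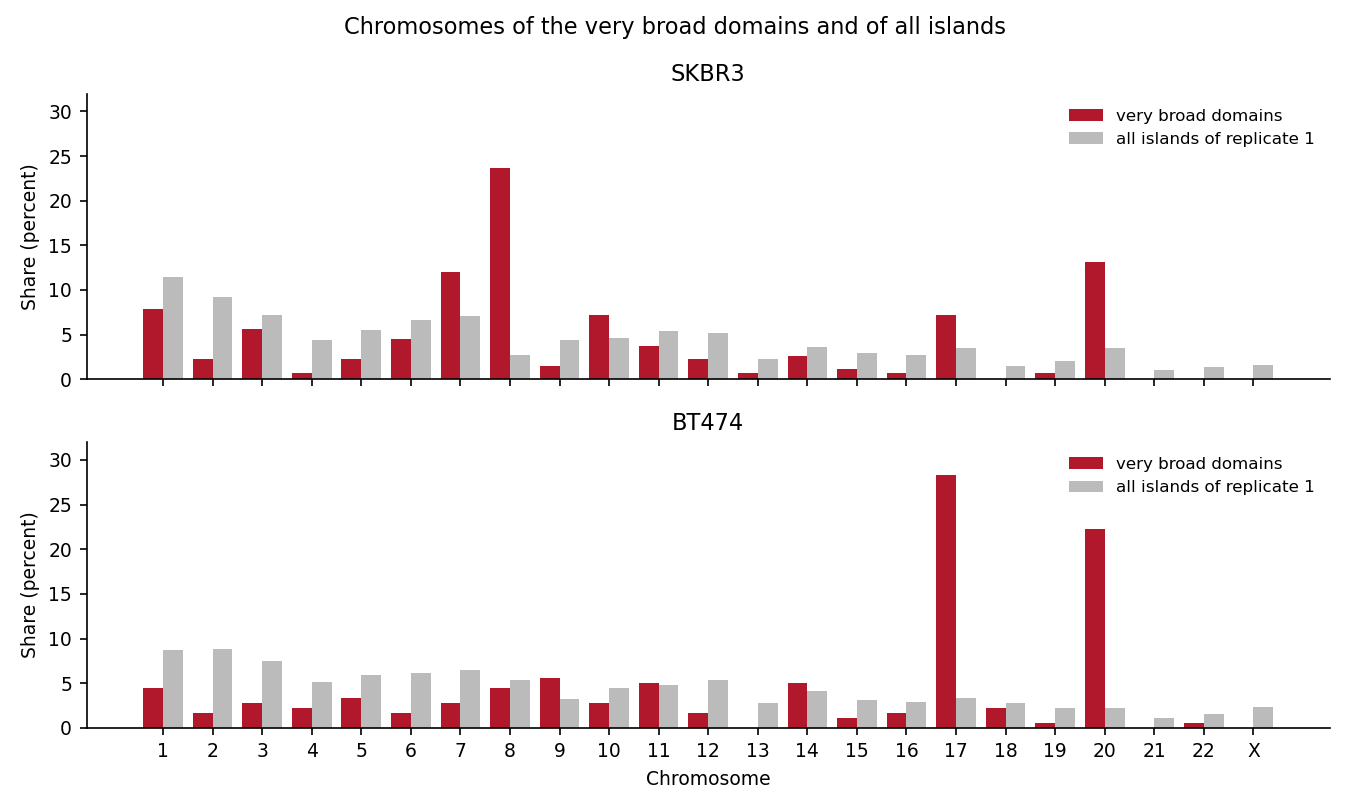
Share of the very broad domains (red) and of all islands of replicate 1 (grey) on each chromosome, in percent, for SKBR3 (266 domains) and BT474 (180 domains). Chromosome 8 in SKBR3 (23.7%) and chromosomes 17 and 20 in BT474 (28.3% and 22.2%) stand above their share of islands, and chromosomes 21 and X hold 0 domains in either line.

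Along these chromosomes the domains formed runs, here domains of a line at most 1 Mb apart. The 266 SKBR3 domains made 133 runs, and 111 of them lay in runs of at least 5. The longest was at chr8:116400201-121734400 with 22 domains, from TRPS1 to beyond COL14A1. Further runs of 12 domains lay at chr8:123676001-126312000, which takes in ZHX2 and FBXO32, and at chr17:37291001-39683200, which takes in ERBB2 and KRT19. The 180 BT474 domains made 87 runs, and 75 of them lay in runs of at least 5. Its longest runs, chr17:35452801-38238600 with 19 domains and chr17:46514001-49041200 with 17, took in ERBB2 and the HOXB cluster. On chromosome 20, 12 BT474 domains lay at chr20:45850201-50384400 and 11 SKBR3 domains at chr20:47391001-50383600, which overlap.

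How many domains lay in dense areas depended on the definition. When the area was judged by the islands under 30 kb within 1 Mb on either side, whose median density had to reach 2 times that of the median island in both replicates, 21 SKBR3 domains (7.89%, 95% Wilson interval 5.22 to 11.8%) and 2 BT474 domains (1.11%, interval 0.305 to 3.96%) qualified. Of all islands, 0.0755% and 0.00415% did. This measure leaves out the broad islands themselves and averages over a span wider than some of the runs. A measure added after the data were seen took all islands of a 1 Mb bin together and called the bin dense at 2 times the median bin. By this measure 72 SKBR3 domains (27.1%, interval 22.1 to 32.7%) and 55 BT474 domains (30.6%, interval 24.3 to 37.6%) lay in dense bins, against 0.383% and 0.345% of all islands. The reads of a domain count in its own bin, so its density and its bin are not independent. The SKBR3 domains in dense bins lay on chromosome 8 (56), chromosome 17 (9) and chromosome 20 (7), and the BT474 domains on chromosome 17 (33) and chromosome 20 (22).

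Domains in dense bins were wider than the others. Their median width was 59.7 kb in SKBR3 and 76.2 kb in BT474, against 38.8 kb and 40.4 kb elsewhere. In dense bins the domains spanned 6.06 Mb in SKBR3 and 5.15 Mb in BT474, and the other islands 2.25 and 2.35 Mb. A wide domain thus weighs heavily in its own bin, so the difference in width is a description and is not independent of the measure. The dense bins of the SKBR3 domains had a median of 3.64 and 3.73 times the median bin in the SKBR3 replicates, and the same bins had 1.28 in each BT474 replicate. For BT474 the medians were 2.41 and 2.46 at home and 1.44 in each SKBR3 replicate. These bins were chosen for their density in 1 line, so lower medians in the other line follow from the choice. Of the domains, 16 of the 72 SKBR3 and 14 of the 55 BT474 domains lay in bins that were dense in both lines. Whether more DNA copies, more methylation per copy or both stand behind a dense bin cannot be told apart in these lists.

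In SKBR3, 8 of the 10 widest domains lay on the long arm of chromosome 8. The widest, chr8:128807801-129097000, was 289.2 kb in replicate 1 and 298.0 kb in replicate 2, and overlapped the long non-coding RNA gene PVT1, with the start of MYC, a transcription factor that drives growth, 59.3 kb away. BT474 had a narrower domain within this stretch, also at PVT1, 37.2 kb wide in replicate 1 with a relative density of 2.30. The start of MYC itself lay in a domain of 120.8 kb and 210.2 kb at chr8:128643201-128764000, with a relative density of 5.27 and only 22.5% and 18.2% of its bases in islands of the BT474 replicates. Other wide domains lay at DEPTOR, an inhibitor of mTOR, and COL14A1 (235.0 kb), at ZHX2 (233.8 kb), at EXT1, an enzyme of heparan sulfate synthesis (219.4 kb), at ZBTB10 and ZNF704 (174.8 kb) and at RDH10, a retinol dehydrogenase, and STAU2 (166.0 kb). A domain that overlapped the body of TRPS1 measured 211.2 kb and one upstream of it 216.2 kb. Every SKBR3 domain of chromosome 8 named here lay in a dense bin. Away from chromosome 8, the widest were in the body of SND1 on chromosome 7 (207.8 kb) and at BCAS1 and CYP24A1 on chromosome 20 (171.4 kb).

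The densest SKBR3 domains were at TRPS1, which encodes a GATA-type zinc finger protein of luminal breast cells. Its body overlapped 4 domains, with relative densities of 3.26, 3.38, 5.80 and 7.05. In BT474 the same gene overlapped 2 domains, at 1.45 and 1.60, whose bases all lay in SKBR3 islands. A domain upstream of it, chr8:116830601-116864800, had the highest value of the line, 8.65 in replicate 1 and 5.97 in replicate 2. It was 34.2 kb wide in replicate 1 and part of an island of 315.0 kb in replicate 2, so the density in replicate 2 is that of the longer island. FBXO32, a ubiquitin ligase subunit, had 6.75 and 6.44, and the domain at PVT1 6.48 and 6.66. At TRPS1 the mark was thus broad in both lines, and more so and denser in SKBR3.

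In BT474, the widest domain held PMEPA1, which encodes a membrane protein that dampens TGF-beta signalling. At chr20:56221201-56637000 it measured 415.8 kb in replicate 1 and 162.2 kb in replicate 2, the largest drop between replicates among the 10 widest domains of the line in kb. SKBR3 had 2 narrower domains inside it, of 35.4 kb and 36.8 kb. The second widest held FBXL20, MED1, a subunit of Mediator, and CDK12, a kinase of transcription elongation. It was 237.2 kb in replicate 1, and replicate 2 held islands of 53.4, 75.2 and 107.2 kb there, the widest being its match. Others lay in PREX1, an exchange factor for Rac (202.0 kb and 188.4 kb), at PTRH2 and VMP1, a gene of autophagy (171.8 kb and 172.0 kb), at NCOA3, a coactivator of steroid receptors, and SULF2 (167.6 kb and 115.2 kb), and at ZMYND8, a chromatin reader (165.2 kb and 173.6 kb). Domains that overlapped no gene body lay 104.0 kb from the start of ZNF217 (155.8 kb and 155.6 kb) and 213.6 kb from that of TFAP2C (155.4 kb and 45.4 kb). The tenth held EPOP, MLLT6, CISD3, PCGF2, PSMB3 and PIP4K2B (147.4 kb and 104.6 kb). All 10 lay on chromosome 17 or 20, and PREX1 was the only one outside a dense bin.

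The domain around ERBB2 was the densest in BT474. At chr17:37742201-37978800 it had the same limits in both replicates, 236.6 kb apart, with 360.6 and 298.6 reads per kb, or 7.21 and 7.0 times the median island. It took in the starts of 9 protein-coding genes, NEUROD2, PPP1R1B, STARD3, TCAP, PNMT, PGAP3, ERBB2, MIEN1 and GRB7. SKBR3 had 2 domains over the same stretch, chr17:37751401-37856200 with a relative density of 5.59 and chr17:37857201-37978600 with 4.73. Their gap of 1000 bp in replicate 1 and 1200 bp in replicate 2 held the start of ERBB2, at position 37856317, and part of the promoter printed above, while the islands of BT474 ran through it. The domains at LASP1NB (6.33 and 5.12) and at MED24 with THRA (6.29 and 4.95), in the same run, came next in density in BT474. ZMYND8 followed with 4.76 and 4.53, and VMP1 with TUBD1 with 4.22 and 4.98. The ERBB2 stretch was thus marked almost from end to end in both lines, with the break at the promoter in SKBR3.

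**Figure D3:**
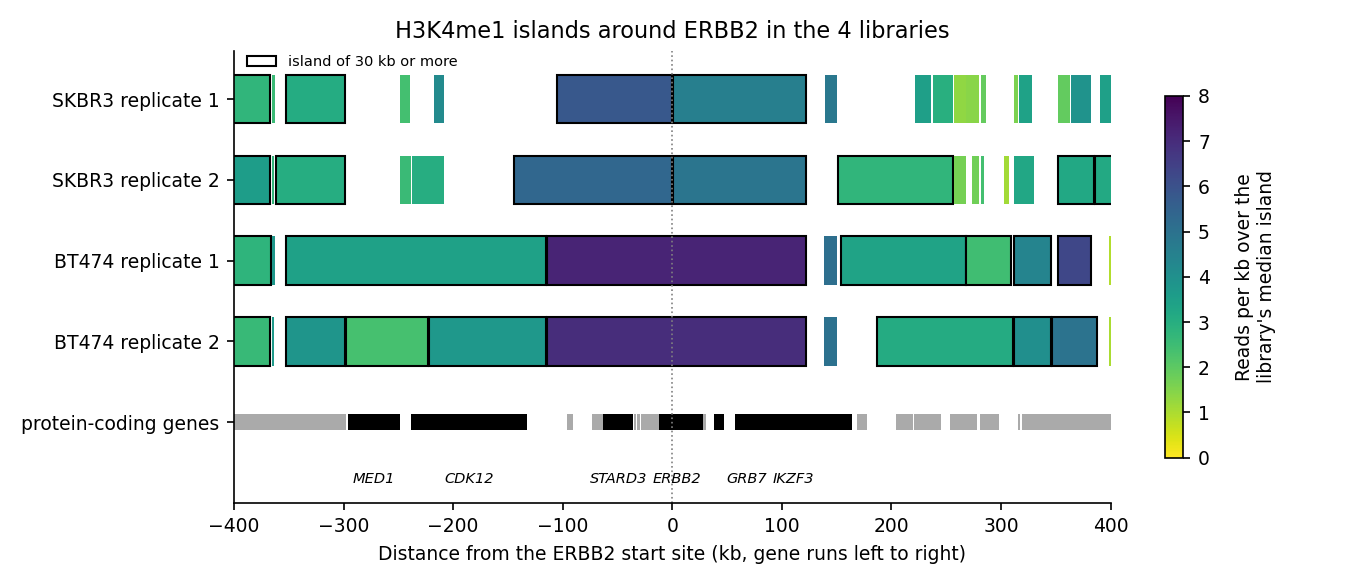
Islands of H3K4me1 in each of the 4 libraries by distance from the start of ERBB2 (kb), coloured by reads per kb over the library's median island, with black outlines for islands of at least 30 kb and protein-coding genes in the bottom row. A single island of 236.6 kb spans ERBB2 in both BT474 replicates (7.21 and 7.0), and in both SKBR3 replicates a narrow gap at 0 separates a pair of islands.

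Other gaps beside broad islands also held a start. Of the gaps of at most 5 kb beside an island of at least 30 kb, 15.6% and 18.7% held a protein-coding start in the SKBR3 replicates and 18.6% and 23.6% in BT474. Between other islands the shares were 13.1%, 13.6%, 15.3% and 16.0%. For replicate 1 of each line the interval beside the broad islands, 12.5 to 19.2% and 14.8 to 23%, included the share between other islands, whereas for replicate 2 it lay above, at 15.4 to 22.4% and 19.2 to 28.7%. Between 2 islands of at least 30 kb, as at ERBB2, the shares were 15.4% and 23.1% in the SKBR3 replicates and 18.2% and 30.4% in BT474. Their intervals, 7.25 to 29.7%, 12.7 to 38.3%, 8.61 to 34.4% and 15.6 to 50.9%, all included the share between other islands. The gaps compared differed in length. Beside broad islands their median was 1400 bp in SKBR3 and 1200 bp in BT474, and between 2 broad islands 1200 bp and 1000 bp. Between other islands it was 1800 bp in both lines. A shorter gap has less room for a start, and length was not held equal here.

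The domains lay mostly within genes and less often at their starts. In SKBR3, 222 domains (83.5%) overlapped the body of a protein-coding gene, 156 (58.6%, interval 52.6 to 64.4%) lay wholly inside 1 gene, and 44 touched none. In BT474 the counts were 166 (92.2%), 93 (51.7%, interval 44.4 to 59.0%) and 14. A protein-coding start lay in 51 SKBR3 domains (19.2%, interval 14.9 to 24.3%) and 54 BT474 domains (30%, interval 23.8 to 37.1%), while 2.72% and 3.08% of all islands held one. A wide island holds more of everything, and per Mb the domains held 5.03 starts in SKBR3 and 10.0 in BT474, against 6.68 and 10.4 over all islands. Per Mb the domains were thus no richer in starts than islands at large. Gene bodies made up 71.6% and 76.8% of the bases of the domains, against 61.8% and 65.4% of the bases of all islands. How many of all islands overlap a gene body or lie inside 1 gene was not counted.

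The kind of place differed between dense bins and the rest. In BT474, 38 of 55 domains in dense bins (69.1%) held a start and 5 (9.09%) lay inside 1 gene, while of the 125 others 16 (12.8%) held a start and 88 (70.4%) lay inside 1 gene. In SKBR3 the shares with a start were 31.9% and 14.4%, and those inside 1 gene 27.8% and 70.1%. At least 2 gene bodies were overlapped by 32 of the 55 BT474 domains in dense bins (58.2%) and 16 of the 72 in SKBR3 (22.2%), against 17 of 125 (13.6%) and 15 of 194 (7.73%) outside. Most domains outside the dense bins were thus stretches inside 1 gene. This is not shown to be particular to the domains, since the same share over all islands was not counted. Of the bases of all islands, 61.8% in SKBR3 and 65.4% in BT474 lay in gene bodies. The domains in and outside dense bins also differ in width, which was not held equal here.

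The median GC content was 42.9% in SKBR3 domains and 43.9% in BT474 domains, against 42.0% and 41.4% over all islands and 42.8% and 42.4% over islands of 10 to 30 kb. CpG per kb had medians of 10.3 and 12.6 in the domains, against 9 and 8.33 over all islands and 9.91 and 10.1 in islands of 10 to 30 kb. The dense bins went opposite ways in the lines. BT474 domains in dense bins had medians of 46.8% GC and 15.1 CpG per kb, against 42.8% and 11.1 outside, and SKBR3 domains 41.5% and 9.49, against 43.4% and 10.5 outside.

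Most domains of a line also carried H3K4me1 in the other line, as narrower islands. A median of 64.8% of the bases of a SKBR3 domain lay in BT474 islands (63.8% and 63.3% by replicate), and 69.6% of a BT474 domain in SKBR3 islands (69.9% and 69.8%). At least 50% was covered for 165 SKBR3 domains (62.0%) and 121 BT474 domains (67.2%), against 53.3% and 50.2% of all islands. The widest island found there had a median width of 15.1 kb and 12.6 kb in the BT474 replicates and 17.9 kb and 18.5 kb in the SKBR3 replicates. The domains were chosen by width in their own line, so narrower islands in the other line follow in part from the choice. An island of at least 30 kb stood in each replicate of the other line at 51 SKBR3 domains (19.2%) and 47 BT474 domains (26.1%), against 0.737% and 1.11% of all islands, which are narrower and so meet fewer islands of any size. Domains overlapped a domain of the other line in 51 cases in SKBR3 (19.2%) and 46 in BT474 (25.6%).

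Cover in the other line was lower for domains in dense bins. The median was 36.2% in dense bins and 73.7% outside for SKBR3, and 44.3% and 82.1% for BT474. The share that overlapped a domain of the other line was less unequal, 19.4% and 19.1% in SKBR3 and 20.0% and 28.0% in BT474. The wide domains of a dense bin thus often had gaps between islands in the other line. At the ends of the range, 69 of 266 SKBR3 and 56 of 180 BT474 domains were covered over at least 90%. These are about the same shares as over all islands, 25.7% and 31.3%. Cover under 10% was found for 15 of 266 and 18 of 180 domains, against 31.1% and 41.5% of all islands, which are narrower and so more often met or missed as a whole.

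**Figure D4:**
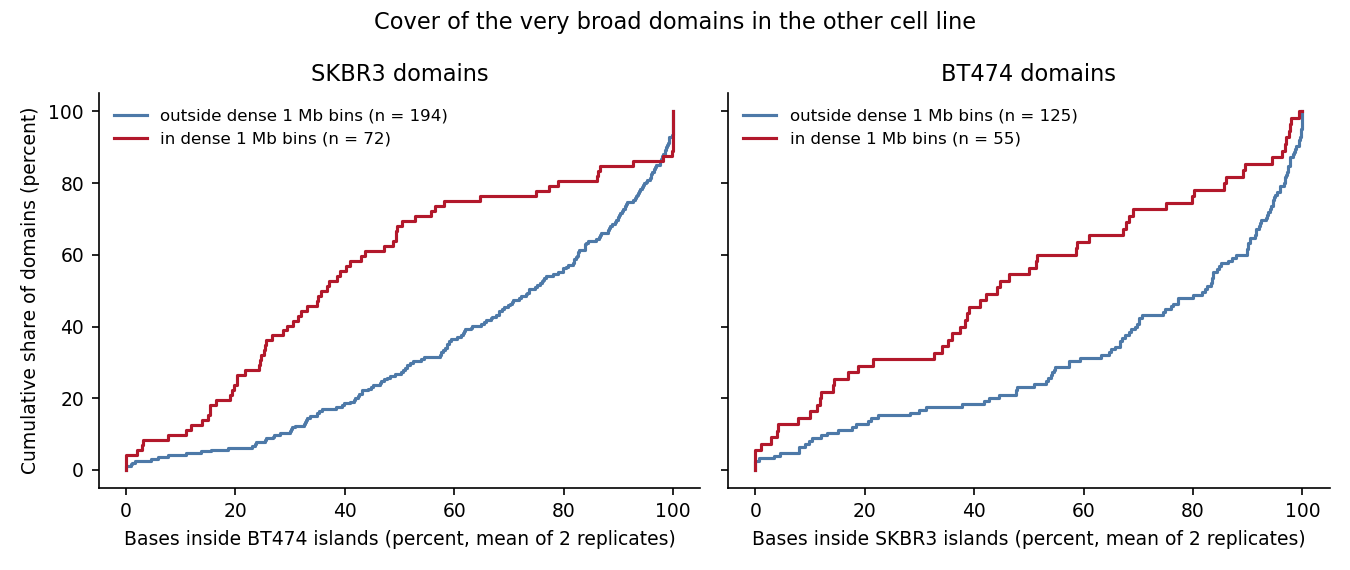
Cumulative share of the domains (percent, vertical axis) by the share of their bases inside islands of the other line (percent, mean of 2 replicates), for SKBR3 domains on the left and BT474 domains on the right. Red lines are domains in dense 1 Mb bins (72 and 55) and blue lines the others (194 and 125). The red medians are 36.2% and 44.3%, and the blue medians 73.7% and 82.1%.

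Of the domains, 5 in SKBR3 and 6 in BT474 met no island in either replicate of the other line, against 30.2% and 41.2% of all islands. In SKBR3, 4 of them lay close together on chromosome 20, in TSHZ2 (100.4 kb and 90.4 kb), in BCAS1 (55.2 kb and 52.0 kb), from BCAS1 over CYP24A1, the enzyme that degrades vitamin D (171.4 kb and 181.6 kb), and 105.5 kb from DOK5 (33.2 kb and 52.6 kb). The remaining one lay in OSBPL3 on chromosome 7 (32.2 kb and 34.4 kb). The 4 on chromosome 20 belong to a run of 8 SKBR3 domains at chr20:51871601-52986600, and between them, at chr20:52145201-52544800 around ZNF217, BT474 had 4 domains of its own. The 4 SKBR3 domains of the run that lay around ZNF217 were covered over 100% by BT474 islands. In BT474, those with the lowest cover lay at TBC1D3 (63.6 kb and 59.4 kb), at PRAC1, PRAC2 and HOXB13 (76.6 kb and 65.0 kb), at XYLT2, MRPL27, EME1 and LRRC59 (70.4 kb and 33.6 kb) and in ANKFN1, with 2 domains (48.2 kb and 41.4 kb in replicate 1). All of these lay on chromosome 17. They are 5 of the 6 BT474 domains that met no SKBR3 island. The ties were taken in order of position, and the remaining one is not described here. TBC1D3 belongs to a family of near-identical copies, so its reads are uncertain. Whether the DNA of these stretches is intact in the line without islands was not tested.

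The gene lists, which were written with earlier results of these data known, met the domains unevenly. Over all 20163 protein-coding genes, 74 (0.367%) had their start in a SKBR3 domain and 111 (0.551%) in a BT474 domain, and 235 (1.17%) and 239 (1.19%) had a body that overlapped one. Of 25 genes of segments that are often amplified in breast cancer, 10 overlapped a SKBR3 domain and 13 a BT474 domain. ERBB2, GRB7, STARD3, PGAP3, MIEN1, IKZF3 and TRPS1 did so in both lines, BCAS1, CYP24A1 and MYC in SKBR3, and CDK12, MED1, PPM1D, NCOA3, ZNF217 and AURKA in BT474. These genes were listed for their place in amplified segments, and they lay mainly in the dense bins, apart from PPM1D, AURKA and, in BT474, TRPS1.

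HOX genes, which set positional identity, appeared in BT474 only. Of 39 HOX genes, 10 had their start in a BT474 domain and 0 in a SKBR3 domain. HOXB1 to HOXB9 shared a single domain, chr17:46587801-46728600, 140.8 kb wide in replicate 1 and 189.0 kb in replicate 2, with a relative density of 2.62, and HOXB13 had its own. The SKBR3 islands covered 4.83% and 3.41% of the HOXB1 to HOXB9 domain and the widest measured 4.80 kb. The 10 genes thus stand for 2 domains, both in a dense run of chromosome 17, and none of the other clusters had one.

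Of 34 luminal transcription factors, the bodies of 4 overlapped a SKBR3 domain and 3 a BT474 domain, against 1.17% and 1.19% of all genes. They were EHF, TRPS1, RARA and SOX13 in SKBR3, and EHF, TRPS1 and ZNF217 in BT474. EHF, an ETS factor of epithelia, was the only one with its start in a domain, and it had nearly the same domain in each line, 40.8 kb and 41.2 kb in SKBR3 and 39.2 kb and 35.2 kb in BT474. RARA, a retinoic acid receptor, lay in the ERBB2 run of SKBR3 (31.6 kb and 54.8 kb), and SOX13 in a domain of 42.6 kb in each replicate. Among 25 genes of epithelial structure, KRT19 in SKBR3 was the sole one (37.8 kb and 36.6 kb). Most luminal factors and most genes of epithelial structure had no domain, which also holds for most protein-coding genes at large.

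Of 15 ERBB receptors and their ligands, 2 overlapped a SKBR3 domain and 1 a BT474 domain, against 1.17% and 1.19% of all genes. EGFR, the receptor for EGF, had 2 SKBR3 domains (37.4 kb and 30.8 kb) that were joined to 80.2 kb in replicate 2, with 44.9% and 36.9% of the first and 0% and 1.95% of the second in islands of the BT474 replicates. ERBB2 was the other of the 15, in both lines. Of 28 genes of the ERBB pathway and its feedback, GRB7, an adaptor that binds HER2, overlapped a domain in each line, and LRIG1, a negative regulator of ERBB receptors (31.0 kb and 32.4 kb), and PRKCH, a protein kinase C (40.6 kb and 37.2 kb), in BT474. Of 21 immediate early genes MYC was the only one, in SKBR3. Of 20 basal and mesenchymal genes CAV1, which encodes the coat protein of caveolae, was the only one, with 2 SKBR3 domains (42.6 kb and 33.8 kb) whose highest cover by a BT474 replicate was 13.6% and 2.37%. None of 20 genes of blood cells met a domain in either line.

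Domains shared by the lines outside the dense bins lay mostly inside a gene. There were 37 in SKBR3 and 35 in BT474, of which 25 and 26 lay inside 1 gene. Their median cover in the other line was 98.8% and 97.7%. Of all domains outside the dense bins, shared or not, 70.1% in SKBR3 and 70.4% in BT474 lay inside 1 gene. The genes named here were chosen after their values were seen. PRLR, the prolactin receptor, had 35.0 kb and 48.2 kb in SKBR3 and 51.8 kb and 52.0 kb in BT474. SUSD6 and CD9 had nearly equal widths in all libraries, 48.4 and 48.4 against 47.4 and 47.4 kb for SUSD6, and 42.2 and 42.4 against 43.2 and 42.0 kb for CD9. Also in both lines were domains in ARRB1, ZMIZ1, RREB1 and PTPRK. Gene membership was shared in part. The bodies of 50 genes met a domain in each line, which is 21.3% of the SKBR3 genes and 20.9% of the BT474 genes.

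HER2 peaks were counted in the domains by their midpoint, with exact Poisson intervals at 95% that cover counting error only. After EGF the SKBR3 domains held 13 peaks of the SKBR3 list, or 0.884 per Mb (interval 0.471 to 1.51), against 1.15 per Mb in the other islands (1.03 to 1.28). The BT474 domains held 51 peaks of the BT474 list, 4.60 per Mb (3.43 to 6.05), against 11.1 per Mb in the other islands (10.7 to 11.5). After vehicle the values were 0.680 against 1.21 in SKBR3 and 1.53 against 3.57 in BT474. In BT474 the peaks were thus sparser in the domains than in other islands beyond counting error after either treatment, and in SKBR3 the intervals met. A peak after EGF was found in 12 of 266 SKBR3 and 37 of 180 BT474 domains. The same share over all islands was not counted, and a wide region has more room for a peak, so these counts are not compared. Outside the dense bins described above, the BT474 domains had 8.26 per Mb after EGF (6.11 to 10.9) against 11.2 in other islands (10.8 to 11.5). These intervals overlapped at their ends, but that of the domains did not include 11.2, so the BT474 peaks after EGF were sparser there only at the margin. After vehicle the BT474 value was 2.70 (1.54 to 4.38) against 3.59 (3.37 to 3.81), and the interval of the domains included 3.59. Each list is 1 library, so these intervals say nothing about the spread between cultures.

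Peaks of the own line were sparsest in the domains of dense bins. The 72 SKBR3 domains in dense bins, 6.06 Mb, held 0 SKBR3 peaks after EGF and 0 after vehicle, which allows up to 0.495 per Mb by the limit of 3 counts and 0.609 by the Poisson interval, while the domains outside held 1.5 per Mb (0.801 to 2.57). The BT474 domains in dense bins held 2 BT474 peaks after EGF, 0.388 per Mb (0.0470 to 1.4), and those outside 8.26 per Mb (6.11 to 10.9). The same DNA was not poor in the list of the other line. The SKBR3 domains in dense bins held 67 BT474 peaks after EGF, 11.1 per Mb (8.57 to 14), and the BT474 domains in dense bins held 7 SKBR3 peaks, 1.36 per Mb (0.546 to 2.80). Each of those intervals included the value of other islands outside dense bins in the same list, 10.8 and 0.971 per Mb. All 67 peaks lay in the 56 SKBR3 domains whose bins were not dense in BT474, and 0 in the 16 that were dense in both. The other islands in the dense bins held 1 peak of the own list after EGF in SKBR3 (0.445 per Mb, 0.0113 to 2.48) and 8 in BT474 (3.40 per Mb, 1.47 to 6.71). The BT474 interval lay below the 11.2 per Mb of other islands outside dense bins, while the SKBR3 interval included the 1.16 found there. The authors removed reads in regions of high input signal, found for each line separately, before they selected peaks, and the part of that step in these values was not tested.

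**Figure D5:**
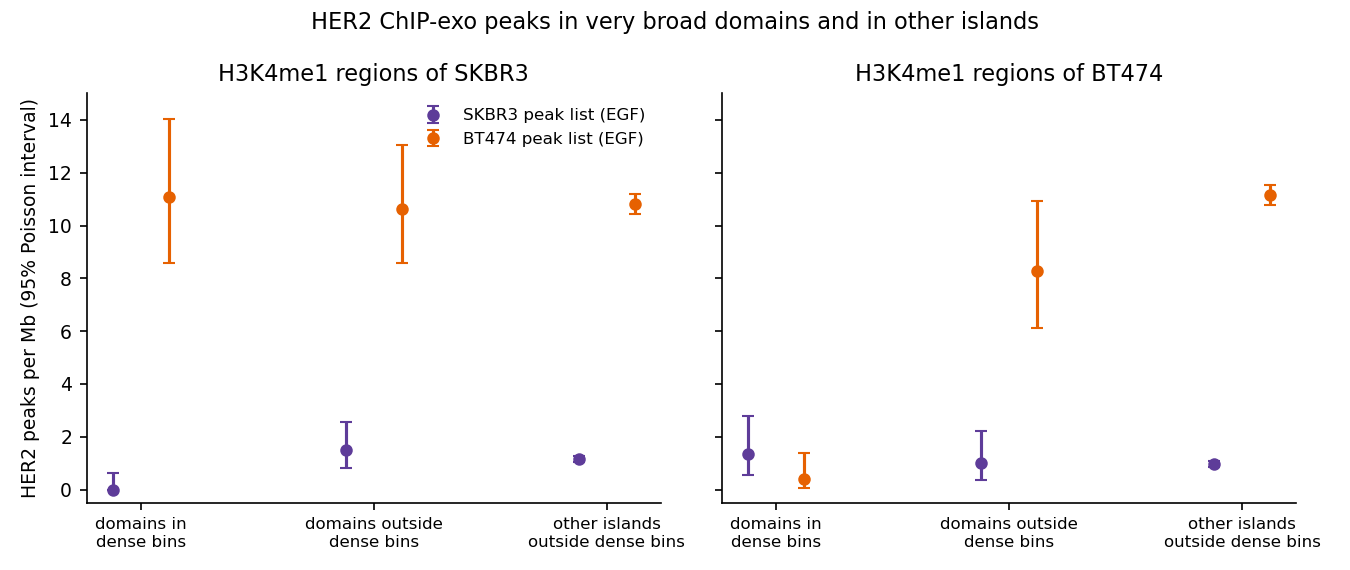
HER2 peaks after EGF per Mb (points) with 95% Poisson intervals (bars) in the domains inside and outside dense 1 Mb bins and in other islands outside them, for H3K4me1 regions of SKBR3 (left) and BT474 (right), with the SKBR3 peak list in purple and the BT474 list in orange. The own list is near 0 in dense bins (0 and 0.388 per Mb), where the list of the other line gives 11.1 and 1.36 per Mb.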

How the data were processed

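The study's methods describe alignment of the reads to hg19 by bowtie2, a filter on mapping quality, and calls of H3K4me1 islands by SICER and of HER2 peaks by MACS2 against input of the same line. The authors also dropped reads in the ENCODE blacklist and in regions of high input signal found by GreyListChIP. The submitters' processing notes instead list BWA 0.5.9 and MACS 1.4.1 beside SICER 1.1, and this difference is not settled here. Each island carries the count of reads as deposited by the authors, not scaled for depth, and width is its end minus its start. The score of the HER2 peaks deposited by the authors was not used.

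The domains, gene lists and comparisons were chosen with earlier results of these data known, and nothing was tested on the domains. Islands of replicate 1 of at least 30000 bp that overlapped an island of that width in replicate 2 were kept, and the matched island of replicate 2 with the largest overlap gave the second value. Density was reads per kb over the median island of the library. Bins of 1 Mb needed at least 50 kb of islands, flanks at least 5 islands. Genes and starts, those of canonical transcripts, came from GENCODE 44 mapped to GRCh37, with 20163 protein-coding genes. Sequence was that of GRCh37, and some promoters and genes are not reported here. The genes named are those at the 10 widest, the 5 densest and the 5 domains of lowest cover in each line, and the list genes at any domain. A domain's genes are those with a start in it, otherwise those it overlaps, otherwise the nearest. Further genes are said to be chosen after their values were seen. Shares carry Wilson intervals and peak densities Poisson intervals at 95%, for counting error only. The finding of domains, the flank measure, the wide islands of the other line and the starts were tested on simulated data. The measures by 1 Mb bins and by summed islands were not. Python 3.11.15, pandas 2.3.3, scipy 1.17.1 and pysam 0.24.0 were used. The alternatives were other width limits, overlaps, joins, single replicates, area definitions and gene sets.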

Additional observations from a re-analysis of the deposited data

How the results depend on the processing

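No paired analysis was possible because the results come from no test. Each result was recomputed for each line under the alternatives, 154 comparisons in all, of which 18 were added after the data were seen. In 68 the value stayed within the spread between replicates, the counting interval or, for numbers of domains, 1.5 times, and in 86 it moved. None changed direction, since none of the values is signed. Values are given for SKBR3 first and BT474 next unless a line is named.

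With a limit of 20 kb there were 781 and 464 domains with median widths of 27.6 and 29.9 kb, relative densities of 1.70 and 1.75, cover in the other line of 67.2 and 80.8%, a wide island in the other line at 11.1 and 17.2%, a start in 14.1 and 18.3%, and, in SKBR3, dense flanks for 3.84%. BT474 then had 7.01 HER2 peaks per Mb. With a limit of 40 kb there were 126 and 93 domains, median widths of 58.6 and 60.6 kb, relative densities of 2.38 and 2.37, cover of 56.5 and 61.0%, dense flanks for 12.7% in SKBR3 and a start in 37.6% in BT474. Joining islands up to 3 kb apart gave 1103 and 770 domains, median widths of 43.4 and 46.2 kb, relative densities of 1.39 and 1.28, dense flanks for 0.272 and 0.130%, cover of 65.7 and 77.6%, a wide island in the other line at 31.0 and 43.4%, a start in 46.4 and 58.4% and 9.51 HER2 peaks per Mb in BT474. An overlap of 50% of the wider island gave cover of 65.9 and 74.7% and, in BT474, a relative density of 2.05. Counting both end bases gave cover of 69.4% in BT474.

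The share in dense areas moved most. It was 17.7 and 14.4% at 1.5 times the median, 1.5 and 0% at 3 times, 3.01% in SKBR3 with flanks of 500 kb, 0% in BT474 with flanks of 2 Mb, 7.78% in BT474 with all islands of the flank, 27.1 and 30.6% by 1 Mb bins, and 21.8 and 20.6% by summed islands within 500 kb. Outside dense bins, the relative density was 1.83 and 1.80, cover 73.7 and 82.1%, the share with a start 14.4 and 12.8%, the BT474 median width 40.4 kb and the BT474 HER2 density 8.26 per Mb. Scaling by islands of at least 10 kb gave relative densities of 1.51 and 1.54. Cover in each replicate was 60.8 and 67.8%. A wide island in the other line stood at 29.0 and 41.7% with a limit of 20 kb there, and at 26.7 and 35.6% in either replicate. A start of any annotated gene lay in 55.6 and 60.6%, and a gene body overlapped 83.5 and 92.2%.

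With 1 replicate alone, so without the other, SKBR3 had 356 to 378 domains, a median width of 38.5 to 40.6 kb, a relative density of 1.85 to 1.88, dense flanks for 5.29 to 7.58%, cover of 62.4 to 62.5%, a wide island in the other line at 16.0 to 16.1%, a start in 18.3 to 20.6% and 0.776 to 0.791 HER2 peaks per Mb. BT474 had 236 to 258 domains, 40.8 to 41.0 kb, 1.87 to 1.89, dense flanks for 1.55 to 4.24%, cover of 70.1 to 71.6%, a wide island at 23.6 to 24.2%, a start in 25 to 25.6% and 5.58 to 5.67 peaks per Mb. In BT474 the higher share with dense flanks came from replicate 2 alone.

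The domain with the fewest reads had 1089, so counting error in its density was small, and the HER2 lists, with 13 and 51 peaks in the domains of their line, limit the precision of the peak densities. Without copy number, the areas remain areas of dense reads.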
